A study of Mus musculus with 13 samples.

Results

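Endothelial cells line every blood vessel, and a set of 10 genes of these cells and of vessel growth was followed in the inguinal white adipose tissue, a subcutaneous fat depot, of 13 mice. The genes were found by symbol among the 54532 genes of the deposited table: Pecam1, Cdh5, Kdr, Flt1, Tek, Tie1, Emcn, Cldn5, Egfl7 and Vegfa. Each symbol occurred once in the table, each gene was above 0 in 13 of 13 libraries, and 10 of 10 passed the filter on low values (an FPKM of 1 or more in 3 or more libraries, met by 14421 genes). FPKM counts reads or fragments relative to gene length and to the size of the library. The gene length in the table was 1 to 2.57 times the length of the annotated transcript with the longest coding sequence, so the order of levels between genes depends on which length is used.

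The study asked how a diet rich in protein acts on mice whose sleep is broken up. SC_ConD mice (n = 3) slept normally and ate chow, SF_ConD mice (n = 5) had fragmented sleep and ate the same chow, and SF_HPD mice (n = 5) had fragmented sleep and a high-protein diet, with 50% of the calories from protein, 12% from fat and 38% from carbohydrate. All 3 groups were fasted for 12 h before the tissue was taken, and each library came from 1 mouse. No group combined normal sleep with the high-protein diet, so an effect of that diet without fragmented sleep was not measured. For genotype, strain, age, sex and the length of both treatments, nothing is given in the sources used here.

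In the signalling that these genes are known for, VEGF-A (Vegfa) is secreted by tissue cells, adipocytes among them, and binds the receptor tyrosine kinases VEGFR2 (Kdr) and VEGFR1 (Flt1) on endothelial cells; VEGFR2 carries most of the growth signal, and VEGFR1 binds the ligand tightly with weak signalling. Angiopoietins bind a separate receptor, Tek (also called Tie2), and Tie1 is its related co-receptor. Cdh5 (VE-cadherin), Cldn5 (claudin-5) and Pecam1 hold neighbouring endothelial cells together, Emcn (endomucin) is a sialomucin of the vessel surface, and Egfl7 is a matrix protein that endothelial cells secrete. In whole tissue, fewer endothelial cells and less RNA per cell cannot be told apart.

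The stretches upstream of the start sites of 3 receptor genes and of Cldn5 are shown because the receptors were high together in the same 4 libraries and Cldn5 was not; windows of the other genes are given as counts. They are the 250 bases before each start in RefSeq's annotation of GRCm38.p6, which held an entry for 8 of the 10 genes and none for Cdh5 and Pecam1. Capitals mark AGGAAG and CCGGAA, 2 sequences that contain the GGAA core of ETS factors, a family that acts in endothelial cells, on either strand.
Kdr, chr5:75978456-75978705, minus strand: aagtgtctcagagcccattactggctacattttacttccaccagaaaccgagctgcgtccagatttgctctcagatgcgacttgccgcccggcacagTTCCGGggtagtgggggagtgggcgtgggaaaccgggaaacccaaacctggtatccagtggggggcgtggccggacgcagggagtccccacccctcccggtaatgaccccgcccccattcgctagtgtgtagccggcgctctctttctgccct
Flt1, chr5:147726012-147726261, minus strand: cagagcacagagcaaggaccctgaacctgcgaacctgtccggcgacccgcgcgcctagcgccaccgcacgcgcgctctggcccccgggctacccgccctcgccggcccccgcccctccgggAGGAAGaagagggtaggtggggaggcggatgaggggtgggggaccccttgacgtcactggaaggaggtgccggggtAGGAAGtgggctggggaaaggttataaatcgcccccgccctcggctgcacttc
Tek, chr4:94739039-94739288, plus strand: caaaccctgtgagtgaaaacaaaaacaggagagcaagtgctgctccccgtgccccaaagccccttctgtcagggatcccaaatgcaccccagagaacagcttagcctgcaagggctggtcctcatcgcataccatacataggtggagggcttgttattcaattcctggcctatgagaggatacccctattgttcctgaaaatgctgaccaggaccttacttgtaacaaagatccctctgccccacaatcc
Cldn5, chr16:18776597-18776846, plus strand: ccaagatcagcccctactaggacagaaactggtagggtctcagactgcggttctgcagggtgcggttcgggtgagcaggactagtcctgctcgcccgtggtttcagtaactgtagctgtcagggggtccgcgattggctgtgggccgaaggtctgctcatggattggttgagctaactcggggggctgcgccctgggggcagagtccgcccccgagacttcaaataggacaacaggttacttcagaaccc
The Kdr window held 1 CCGGAA and 0 AGGAAG, the Flt1 window 2 AGGAAG and 0 CCGGAA, and the Tek and Cldn5 windows held 0 of either. In the windows not shown, Tie1 held 1 AGGAAG and Emcn 2, the 3 Egfl7 starts held 3, 1 and 0, the 2 Vegfa starts held 0, and CCGGAA was at 0 in each, so matches were found in genes on both sides of the split between libraries. Of 32851 upstream windows of the same length, 29.5% held AGGAAG and 12% held CCGGAA, so these matches are common. A match is a description of letters and not of a bound factor. For the second Vegfa start alone, the bases after the start were not in a transcript of the GENCODE annotation.

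Several libraries stood apart before any comparison. Adipocyte transcripts were abundant in 12 of 13 libraries (Adipoq at 666 to 4231 FPKM), but Adipoq was at 26.1 FPKM in SF_HPD 2, where the keratin gene Krt18 was at 5015 FPKM against at most 743 elsewhere. SC_ConD 2 and SC_ConD 3 held liver transcripts (Alb at 4223 and 1614 FPKM, at most 88.3 elsewhere), and SF_ConD 1, 4 and 5 and SF_HPD 4 and 5 held lymphoid transcripts (Cd79a at 60.7 to 196 FPKM, at most 4.46 elsewhere). The muscle gene Acta1 was at 6792 FPKM in SF_HPD 4 and 1306 FPKM in SC_ConD 3. A length trend was computed for each library from the other genes tested, as Spearman's rho between gene length and the library's deviation from the gene's mean log2(FPKM + 1). It was 0.559 in SC_ConD 1, 0.485 in SF_ConD 3, 0.563 in SF_HPD 1 and 0.484 in SF_HPD 4, and between -0.436 and 0.032 in the other 9 libraries. Depth, recovered from the steps of the FPKM values, was 14815592 to 18303302 reads.

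The levels set Cldn5 apart. Over the 13 libraries its mean was 110.3 FPKM, and it was above Egfl7, the next gene (33.2 FPKM), in 13 of 13 libraries. Cdh5 (29.81 FPKM), Pecam1 (29.79 FPKM) and Vegfa (28.2 FPKM) followed; Cdh5 exceeded Pecam1 in 4 of 13 libraries and Pecam1 exceeded Vegfa in 6 of 13, so these 3 genes had no order that held in all libraries. Cdh5 was above Pecam1 in 0 of the 9 libraries of lower length trend, and thus in each of the 4 of high trend. Tie1 (11.04 FPKM), Kdr (10.1 FPKM), Tek (9.14 FPKM) and Emcn (8.80 FPKM) also lay close together. Tie1 was above Kdr in 9 of 13 libraries, Kdr above Tek in 6 of 13 and Tek above Emcn in 4 of 13, with 0 of the 9 libraries of lower trend among those 4. Flt1 had the lowest mean FPKM, 5.33, and was below Emcn in 9 of 13 libraries, which were the 9 of lower trend. The order by mean over 13 libraries thus leaned on the 4 high libraries. Per transcript length in place of the table's gene length, the means ran from 110.3 for Cldn5, 85.4 for Egfl7, 62.3 for Pecam1 and 61.3 for Vegfa to 10.4 for Flt1 and 9.26 for Tek, so Flt1 was no longer the lowest.

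**Figure D1:**
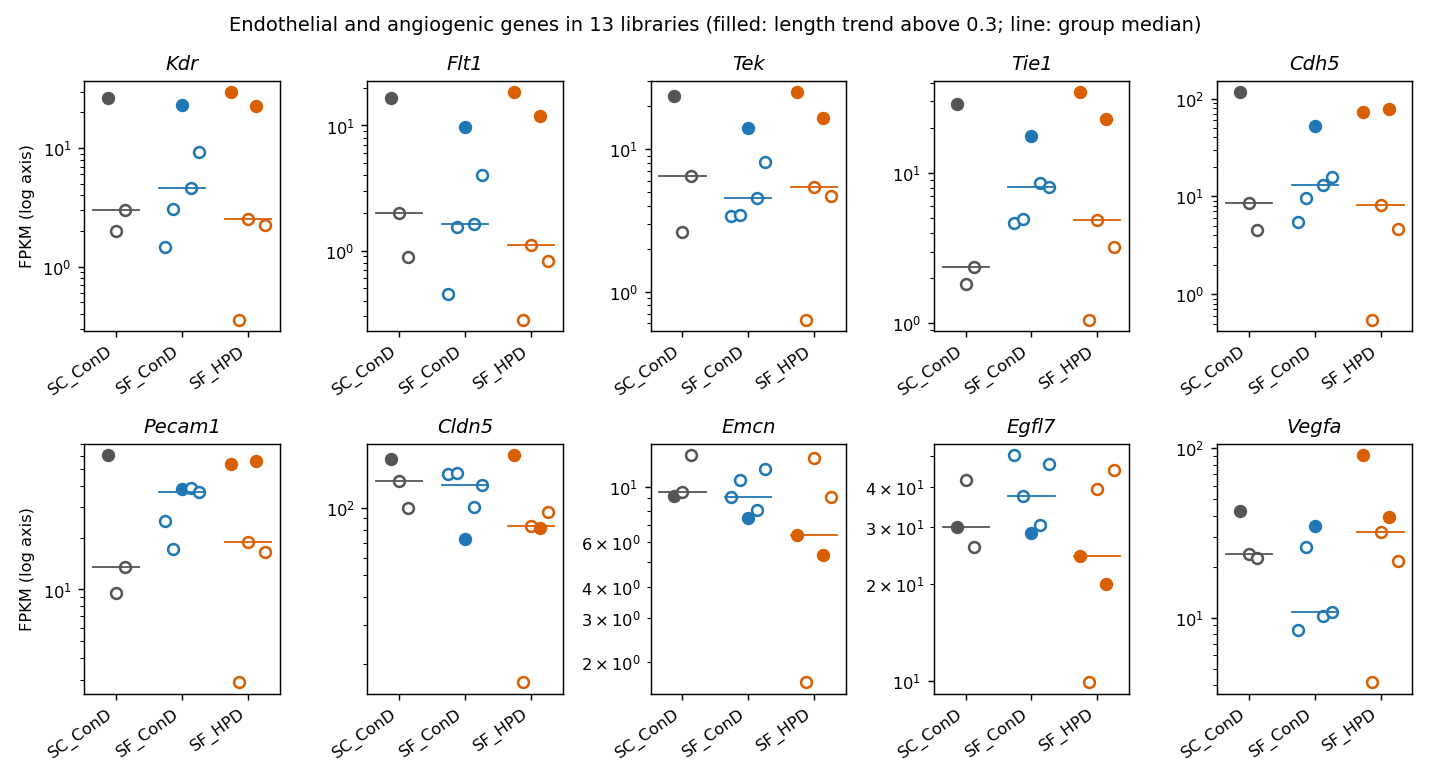
FPKM of each of the 10 genes (1 panel a gene, log axis with its own range) in 13 libraries by group, with a line at the group median; filled points are the 4 libraries of high length trend. SF_HPD 2 is the lowest point in each panel, and the filled points are the highest for Kdr, Flt1, Tek, Tie1, Cdh5 and Vegfa.

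The VEGF receptor genes varied widely between mice of the same group. Kdr was at 26.5, 1.99 and 3.01 FPKM in SC_ConD 1 to 3, at 1.46, 3.08, 23.2, 4.63 and 9.36 FPKM in SF_ConD 1 to 5, and at 29.6, 0.358, 2.53, 22.8 and 2.26 FPKM in SF_HPD 1 to 5. The same 4 libraries were high in each case, SC_ConD 1, SF_ConD 3, SF_HPD 1 and SF_HPD 4, and the 3 groups overlapped. Flt1 was at 16.5, 1.99 and 0.892 FPKM in SC_ConD, at 0.455, 1.54, 9.68, 1.64 and 4.05 FPKM in SF_ConD, and at 18.4, 0.282, 1.10, 12.0 and 0.822 FPKM in SF_HPD, with the same 4 libraries on top. These Kdr levels rest on 3556 to 5700 recovered reads in the 4 libraries and on 28 to 972 in the other 9.

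The angiopoietin receptor genes had the same 4 libraries on top, though not the same order of libraries. Tek was at 23.7, 2.60 and 6.51 FPKM in SC_ConD, at 3.38, 3.47, 14.1, 4.52 and 8.16 FPKM in SF_ConD, and at 25.1, 0.637, 5.41, 16.6 and 4.67 FPKM in SF_HPD. Tie1 was at 29.0, 1.82 and 2.38 FPKM in SC_ConD, at 4.62, 4.92, 17.7, 8.58 and 8.05 FPKM in SF_ConD, and at 34.4, 1.06, 4.90, 22.8 and 3.22 FPKM in SF_HPD. SC_ConD 1, SF_ConD 3, SF_HPD 1 and SF_HPD 4 were again above each of the other 9 libraries, and the groups overlapped.

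The junction genes split. Cdh5 was at 115.5, 8.63 and 4.54 FPKM in SC_ConD, at 5.44, 9.52, 51.8, 13.1 and 15.6 FPKM in SF_ConD, and at 72.5, 0.550, 8.18, 77.5 and 4.66 FPKM in SF_HPD, so the 4 libraries stood further apart than for any other of the 10 genes. Pecam1 was at 60.4, 9.51 and 13.5 FPKM in SC_ConD, at 25.2, 17.2, 38.4, 38.7 and 36.8 FPKM in SF_ConD, and at 53.9, 2.89, 18.8, 55.4 and 16.6 FPKM in SF_HPD; here SF_ConD 4 was level with SF_ConD 3. Cldn5 was at 165.4, 132.5 and 100.005 FPKM in SC_ConD, at 141.6, 143.8, 72.5, 101.0 and 127.1 FPKM in SF_ConD, and at 172.5, 16.6, 83.0, 81.7 and 96.4 FPKM in SF_HPD. In FPKM, Cldn5 was highest in SF_HPD 1 and SC_ConD 1 but low in SF_ConD 3 and SF_HPD 4, which were high for Cdh5. Rescaled to the same sum in each library (TPM), Cldn5 was not low in SF_HPD 4. It was at 260.4 there, at 656.2 in SF_HPD 1, 455.5 in SC_ConD 1 and 259.4 in SF_ConD 2. SF_ConD 3 was at 200.9 TPM, below SF_ConD 4 at 224.8.

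The remaining surface and matrix genes did not separate the 4 libraries. Emcn ranged from 1.67 to 13.3 FPKM and Egfl7 from 9.90 to 50.3 FPKM. In the 4 libraries Emcn was at 5.35 to 9.13 FPKM and Egfl7 at 20.0 to 30.0 FPKM, inside the range of the other 9. The low end of that range was SF_HPD 2 alone. Without it the lowest of the rest were 8.04 FPKM for Emcn (SF_ConD 4) and 26.0 FPKM for Egfl7 (SC_ConD 3). SF_HPD 1 and SF_HPD 4 lay below these for both genes, and SF_ConD 3 for Emcn. The ligand gene Vegfa was at 42.6, 23.8 and 22.6 FPKM in SC_ConD, at 8.39, 26.2, 34.5, 10.2 and 10.8 FPKM in SF_ConD, and at 91.1, 4.15, 31.9, 39.1 and 21.5 FPKM in SF_HPD. Its highest library, SF_HPD 1, was also the highest for 5 other genes of the 10. SF_HPD 2, the library with few adipocyte transcripts, was the lowest for 10 of 10 genes.

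In all, 6 of the 10 genes (Cdh5, Kdr, Flt1, Tek, Tie1 and Vegfa) had each of the 4 libraries of high length trend above each of the other 9, against 13.5% of the 14421 genes tested. Pecam1 missed by SF_ConD 3 alone (38.4 against 38.7 FPKM in SF_ConD 4), and became the 7th gene when values were rescaled to TPM (the same sum in each library), by median-of-ratios or to each library's own total, where the share of all genes was 30.1%, 14% and 20.7%. The mean log2(FPKM + 1) of the 4 libraries minus that of the other 9 was 3.38 for Cdh5, 2.86 for Kdr, 2.72 for Flt1, 2.44 for Tie1, 2.06 for Tek, 1.60 for Vegfa and 1.59 for Pecam1. It was 0.31 for Cldn5, -0.28 for Emcn and -0.38 for Egfl7. These 3 values, with their signs, are for FPKM as deposited and depend on the scaling. In TPM, Emcn was at 17.0 to 25.1 in the 4 libraries and 1.26 to 28.0 in the other 9. Egfl7 was at 63.6 to 93.2 and 7.50 to 84.7 TPM.

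**Figure D2:**
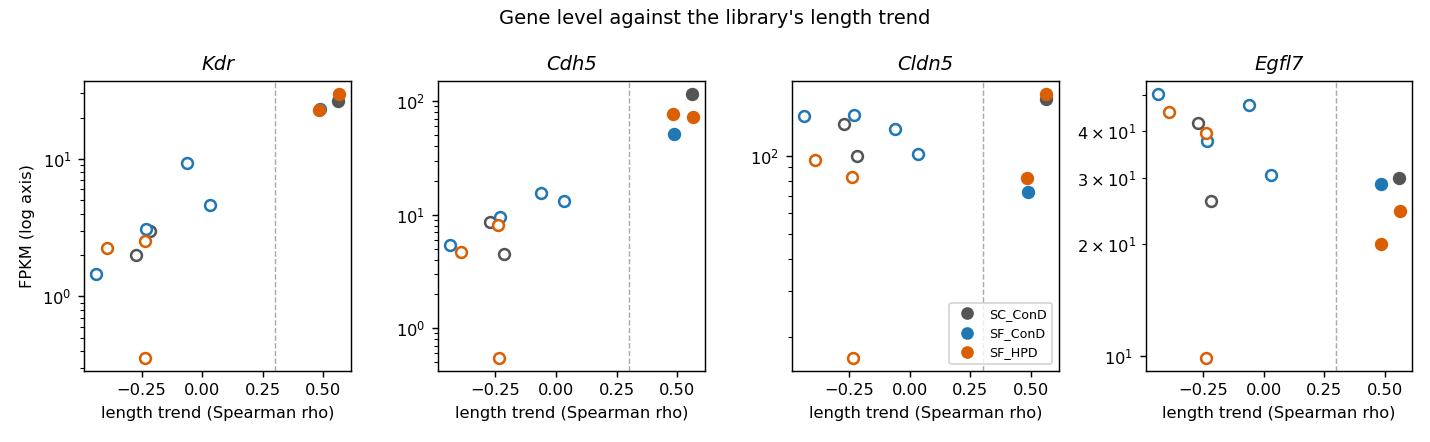
FPKM (log axis) of Kdr, Cdh5, Cldn5 and Egfl7 against the length trend of the library (Spearman's rho, computed without the 10 genes), 1 point for each of 13 libraries, coloured by group and filled to the right of the dashed line at 0.3. For Kdr and Cdh5 the 4 filled points lie above the other 9, and for Cldn5 and Egfl7 they do not.

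Coding length ran along with this split, with Vegfa as an exception. The longest coding sequence has 4035 bases for Kdr, 3999 for Flt1, 3402 for Tie1, 3369 for Tek, 2352 for Cdh5 and 2196 for Pecam1. It has 834 bases for Egfl7, 783 for Emcn and 654 for Cldn5, the 3 genes with the smallest differences. Vegfa, with 1176 bases, is short by this measure but had a difference (1.60) close to that of Pecam1 (1.59). The length trend itself was computed with the table's gene length. By that length Vegfa (4285 bases) was close to Cdh5 (4203 bases), and Emcn (5409 bases) was longer than both. Which gene is the exception thus depends on the length used. Among the other genes tested, the same separation of libraries held for 56% of 1510 genes with a coding length over 3000 bases, for 30.4% of 1154 genes of 2250 to 3000 bases, for 15.9% of 2510 genes of 1500 to 2250 bases, and for 5.75% and 1.48% of genes in the bins of 750 to 1500 bases and up to 750 bases. The median difference in those bins was 1.05, 0.62, 0.31, -0.21 and -0.93 on the log2 scale. Of the 10 genes, 8 lay above the median of their bin, and Emcn (-0.28) and Egfl7 (-0.38) lay below it (-0.21). The part of the length trend in the levels of these genes was not tested.

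**Figure D3:**
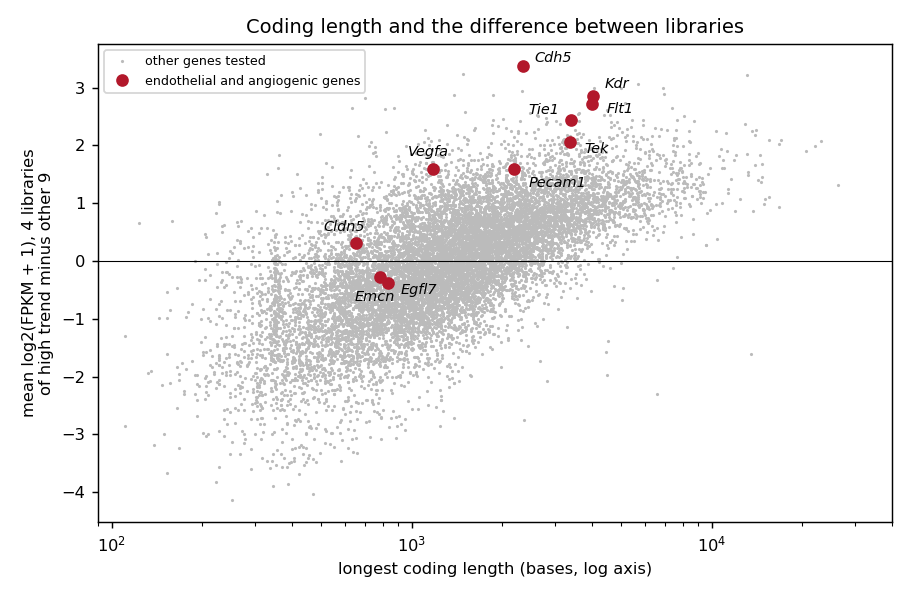
For each gene tested, the mean log2(FPKM + 1) of the 4 libraries of high length trend minus that of the other 9, against the longest coding length in bases (log axis). The 10 genes are the large points; Cdh5 lies at 3.38 and Egfl7 at -0.38, and the differences of other genes grow with length.

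The 3 groups overlapped for each of the 10 genes in every comparison of sleep or diet, and no difference passed the test. With limma on log2(FPKM + 1), fitted to all 13 libraries with Benjamini-Hochberg adjustment over 14421 genes, 0 of the 10 genes passed an adjusted p of 0.05 in each of the 3 comparisons. The background was 0% of all genes in each. At an unadjusted p under 0.05 there were 0 of the 10 genes, against 5.74% of all genes (828) for SF_ConD against SC_ConD, 1.89% (273) for SF_HPD against SF_ConD and 3.68% (531) for SF_HPD against SC_ConD. Limma-voom on recovered reads also called 0 genes, with 608, 258 and 458 at an unadjusted p under 0.05. Groups without overlap were found for 0 of the 10 genes, against 3.6%, 0.458% and 1.64% of all genes. The 3 comparisons share groups.

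For fragmented against normal sleep on chow, 3 of the 10 values were positive and 7 negative, and their median was -0.18 against -0.03 for all genes. The largest was that of Vegfa, at 29.7 ± 11.2 FPKM (SD, n = 3) under normal sleep and 18.0 ± 11.7 FPKM (SD, n = 5) under fragmented sleep, a log2 difference of -0.84 (SE 0.75, 95% interval -2.47 to 0.79, limma adjusted p = 0.99953). Pecam1 was at 27.8 ± 28.3 and 31.3 ± 9.65 FPKM, a difference of 0.55 (SE 0.80). Kdr was at 10.5 ± 13.9 and 8.35 ± 8.82 FPKM, and its difference of -0.03 had an interval of -2.37 to 2.31. With SC_ConD 1 left out the median of the 10 genes was 0.48, and on the TPM scale, which moved the median of all genes by 0.193, it was 0.05.

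For the high-protein diet under fragmented sleep, 3 values were positive and 7 negative, with a median of -0.12 against 0.01 for all genes. Vegfa had the largest, at 37.5 ± 32.7 FPKM (SD, n = 5) in SF_HPD, a log2 difference from SF_ConD of 0.71 (SE 0.65, 95% interval -0.70 to 2.12, limma adjusted p = 0.99999). Cldn5 was at 117 ± 30.3 FPKM in SF_ConD and 90.04 ± 55.5 FPKM in SF_HPD, a difference of -0.65 (SE 0.53). Egfl7 was at 38.9 ± 9.61 and 27.8 ± 14.4 FPKM, a difference of -0.61 (SE 0.39), and Emcn at 9.40 ± 1.76 and 7.10 ± 4.25 FPKM, a difference of -0.54 (SE 0.37). Without SF_HPD 2 the median of the 10 genes was 0.47 and the Vegfa difference 1.31 (unadjusted p = 0.0218, against 2.9% of all genes under 0.05; limma adjusted p = 0.99129). The median also changed sign without SF_ConD 3 (0.24), SF_HPD 3 (0.02) or SF_HPD 5 (0.17). Without SF_HPD 3, Emcn was -0.79 (unadjusted p = 0.0474 from limma, against 2.02% of all genes).

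For SF_HPD against SC_ConD, where sleep and diet both differed, 2 values were positive and 8 negative, with a median of -0.17 against 0.02 for all genes. Cldn5 had the largest, -0.84 (SE 0.62, 95% interval -2.17 to 0.48), followed by Emcn with -0.70 (SE 0.43) and Cdh5 with -0.44 (SE 1.29), and the adjusted p from limma was 0.99991 for each. The median became 0.67 without SC_ConD 1 and 0.36 without SF_HPD 2, and Emcn was -0.95 without SF_HPD 3 (unadjusted p = 0.0374 from limma, against 4.01% of all genes). The intervals of Cdh5, Kdr, Flt1, Tek and Tie1 in all 3 comparisons reached beyond a log2 difference of 1 in both directions, so differences of that size were not detectable with these numbers of mice.

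**Figure D4:**
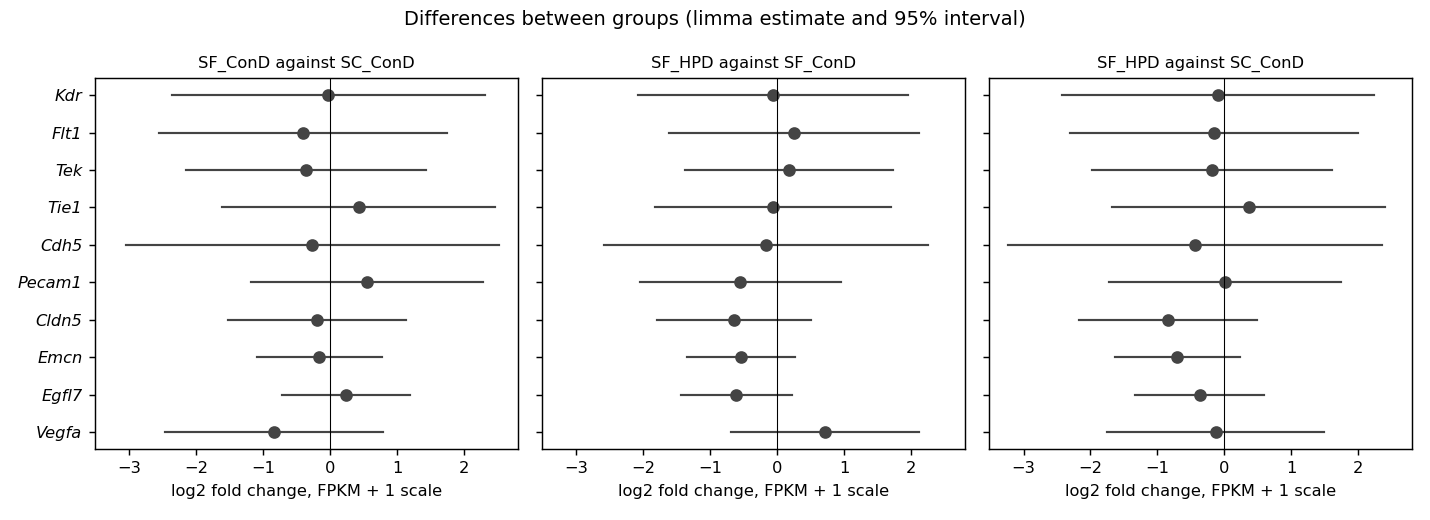
Log2 difference of log2(FPKM + 1) for each of the 10 genes in the 3 comparisons, as points with 95% intervals from limma. Each interval includes 0.

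Because the 4 libraries of high length trend were spread over the groups (1 of 3 SC_ConD, 1 of 5 SF_ConD and 2 of 5 SF_HPD), the groups were also compared within the other 9, an alternative chosen after seeing the data. There the value for SF_HPD against SF_ConD was negative for 9 of 10 genes, and 4 had an unadjusted p under 0.05 against 5.06% of all genes: Pecam1 (-1.40), Cdh5 (-1.38), Cldn5 (-1.29) and Tie1 (-0.98). Their adjusted p from limma was 0.70725. When SF_HPD 2 was also left out these values were -0.64, -0.64, -0.50 and -0.55, and the 1 gene with an unadjusted p under 0.05 was Vegfa (1.01, limma adjusted p = 0.99012; 2.51% of all genes). Among the 4 libraries, Cdh5 was at 115.5 FPKM in SC_ConD, 51.8 in SF_ConD and 72.5 and 77.5 in SF_HPD, and Kdr at 26.5, 23.2, and 29.6 and 22.8 FPKM; these 4 values allow no comparison. Against SC_ConD within the 9 libraries, the SF_ConD value of Tie1 was 1.25 (unadjusted p = 0.0205, limma adjusted p = 0.281; 14.7% of all genes). Without SF_HPD 2, Tie1 and Pecam1 (1.24) were under 0.05 unadjusted, beside 20.1% of all genes, with limma adjusted p = 0.114 and 0.137. The 2 SC_ConD libraries left in these fits are those with liver transcripts. SF_ConD 1, 4 and 5 and SF_HPD 5, also left in, are lymphoid-rich. Pecam1 was at 25.2, 38.7 and 36.8 FPKM in SF_ConD 1, 4 and 5 and at 17.2 FPKM in SF_ConD 2. In SF_HPD 5 it was at 16.6 FPKM. The part of lymphoid content in these differences was not tested.

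Ratios within a library are little affected by how it was scaled, except for low genes. They were taken as log2 ratios of FPKM + 0.1, and the added 0.1 weighs on low values: Vegfa to Kdr in SF_HPD 2 was 3.21, and 1.92 with 1 added instead. The ratio of Cldn5 to Cdh5 was 0.08 to 1.25 in the 4 libraries and 2.94 to 4.69 in the other 9, and that of Egfl7 to Pecam1 was -1.47 to -0.41 against -0.34 to 2.13, so both pairs separated the libraries, the second by a narrow gap. Pairs of similar coding length showed no gap: Tie1 to Tek was 0.29 to 0.46 in the 4 libraries and -1.42 to 0.91 in the other 9, and Flt1 to Kdr was -1.25 to -0.68 and -1.65 to 0.00. The ligand to receptor ratio, Vegfa to Kdr, was 0.57 to 1.62 and 0.20 to 3.60, so it showed no gap either, though the coding lengths differ (1176 and 4035 bases). The part of length in these ratios was not tested. By group, Vegfa to Kdr was 2.35 ± 1.48 (SD, n = 3) in SC_ConD, 1.48 ± 1.22 (SD, n = 5) in SF_ConD and 2.48 ± 1.22 (SD, n = 5) in SF_HPD, with the order of SC_ConD and SF_HPD turned when 1 was added (2.09 and 2.06). Cldn5 to Cdh5 was 2.96 ± 2.13, 3.01 ± 1.58 and 2.74 ± 2.002. The 3 groups overlapped in each of the 5 ratios.

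**Figure D5:**
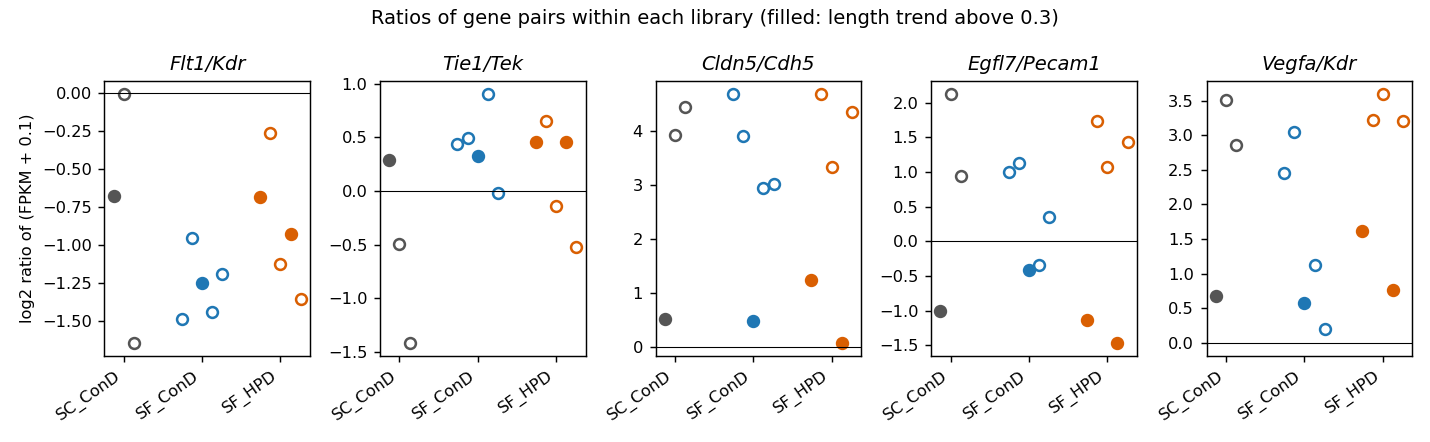
Log2 ratios of 5 gene pairs within each library (FPKM + 0.1), by group, with the 4 libraries of high length trend as filled points. The Cldn5 to Cdh5 ratio is at most 1.25 in those 4 and at least 2.94 in the other 9.

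In the wider pathways, 0 genes of any list passed the limma test in any comparison, beside 0% of all genes. Outside the 10 genes, the 4 libraries of high length trend lay above the other 9 for 2 of 7 VEGF ligands, receptors and co-receptors, 2 of 3 angiopoietin and Tie pathway genes, 2 of 9 junction genes, 5 of 12 Notch and Dll4 pathway genes, 6 of 12 angiogenesis inhibitors and vessel matrix genes, and 8 of 23 other blood endothelial markers. The share of all genes was 13.5%, and among the other genes tested it was 56% for coding lengths over 3000 bases and 1.48% up to 750 bases. Coding length was not matched in these counts. Some genes are in more than 1 list. Ptprb was counted both with the angiopoietin and Tie pathway and with the other blood endothelial markers. Fabp4 and Cd36, counted with those markers, are also in the adipocyte list. Nrp1, a VEGF co-receptor, was at 8.63 to 21.4 FPKM in the 4 libraries and 1.32 to 7.50 FPKM in the other 9, and Ptprb, an endothelial phosphatase that acts on Tek, at 11.8 to 28.4 and 0.676 to 6.06 FPKM. Vegfb, a ligand of Flt1, overlapped and was at 51.9 to 74.0 FPKM in the 4 and 39.9 to 180.5 FPKM in the other 9. Among transcription factors 4 of 17 separated the libraries, Epas1 (HIF-2 alpha) with 85.7 to 129.5 against 1.57 to 49.4 FPKM. The basement membrane collagen Col4a1 did so with 38.5 to 163.3 against 6.50 to 34.8 FPKM. Klf2 overlapped, with 32.3 to 59.0 against 5.88 to 60.3 FPKM. Of the other most abundant genes of these lists, Angpt1, Ephb4, Jag1 and Col4a2 separated the libraries. Vegfd, Angpt2, Esam, Icam2, Gja4, Fabp4, Cd36, Rgcc, Sox18, Hes1 and Nid1 overlapped.

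In lists of other cell types and of hypoxia-responsive genes, the 4 libraries lay above the other 9 for 1 of 12 mural cell genes, 0 of 7 lymphatic endothelial genes, 1 of 7 genes of high endothelial venules, 0 of 14 adipocyte genes and 2 of 16 hypoxia-responsive genes besides Vegfa, beside the same 13.5%. Differences between lists were not tested. The mean log2(FPKM + 1) of the adipocyte list was 8.07 to 9.32 in the 4 libraries and 4.29 to 9.32 in the other 9. For B cell and lymph node genes it was 0.44 to 4.72 and 0.35 to 5.36. Glycam1, made by high endothelial venules of lymph nodes, was at 124 to 1545 FPKM in the 5 lymphoid-rich libraries and at most 0.796 FPKM elsewhere. Angpt2, a ligand of Tek, was at 1.75 ± 0.496 FPKM (SD, n = 3) under normal sleep on chow, at 2.03 ± 0.560 FPKM (SD, n = 5) under fragmented sleep on chow, and at 1.54 ± 1.06 FPKM (SD, n = 5) in SF_HPD.

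The genes whose levels ran most like the mean of the 9 endothelial genes (all but Vegfa) over the 13 libraries, among 9668 candidates averaging 2 FPKM or more, were Sh3pxd2a (Pearson's r 0.982), Ablim3 (0.978), Robo4 (0.9749), Adcy4 (0.972), Map4k4 (0.971) and Adgrf5 (0.970). Each had the 4 libraries above the other 9, and over those 9 alone r was 0.923 to 0.967. Their coding lengths were 2046 to 4044 bases. The 9 endothelial genes were not all alike over the 13 libraries. Among Kdr, Flt1, Tek, Tie1, Cdh5 and Pecam1 r was 0.777 to 0.973. Between these genes and Cldn5, Egfl7 and Emcn it was -0.123 to 0.652. Over the 9 libraries of lower trend alone, the 2 ranges were 0.561 to 0.946 and 0.492 to 0.885, so they largely overlapped. Those 9 include SF_HPD 2, the lowest library for each of these genes. The genes most like Vegfa were Klhl2 (0.981), Nploc4 (0.970), Amotl2 (0.957), Fgf10 (0.946), Cped1 (0.941) and Unc93a2 (0.940), of which Nploc4 and Amotl2 had the 4 libraries above the rest. These values share libraries, scaling and length trend and are given as a description.

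The Egfl7 gene shares 64 of its 3581 exonic bases with Agpat2 on the opposite strand, a gene of lipid synthesis with a mean of 241 FPKM, and no strand setting of the counting is stated, so some reads of the pair may be exchanged.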

How the data were processed

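RNA was measured in 13 libraries of mouse inguinal fat, each from 1 mouse. The tools HISAT2 2.0.5, CASAVA and featureCounts 1.5.0-p3 and the build mm8 appear in the submitters' processing notes with no role; gene coordinates in the deposited table equal those of GRCm38 for the 10 genes. The authors deposited FPKM per gene. From the steps of the values and the gene lengths, 100% came out as whole reads within 0.05; the implied divisor was 0.479 to 1.23 times a library's own total, its origin not given in the sources used here, and FPKM sums differed 5.03-fold. Groups came from the labels. Values were tested as log2(FPKM + 1) in limma 3.58.1 (R 4.3.3; trend and robust, group means, two-sided), so folds of low genes are understated. Genes reaching an FPKM of 1 in 3 or more libraries entered the fit. Members and gene lists were chosen with earlier results of these data known. Named genes are the 10, up to 3 most abundant others of a list, and the 6 most like in level; single genes of other cell types (Adipoq, Alb, Acta1, Cd79a, Glycam1) mark tissue make-up, and Krt18 was added after its values were seen. Alternatives were pseudocount, filter, scaling, moderation, samples, replicate block, length covariate and limma-voom on recovered reads. The test recovered known changes in simulated reads, set with large changes, well-counted genes, small spread and no length trend or odd library. In the real data the mean of the 10 genes had a pooled SD of 1.06 on the log2 scale. The simulation thus does not measure the power in these data. The deviations of SF_HPD and SC_ConD libraries of the same number had r of 0.711, 0.333 and 0.191. The 0.711 joins SC_ConD 1 and SF_HPD 1, both of high length trend. For the other 2 pairs of groups r was -0.67 to 0.405. The labels give no source of pairing, and these values do not establish it. No 2 libraries of a group were alike within counting noise. Sequence came from RefSeq (GRCm38.p6), annotation from GENCODE M21.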

Additional observations from a re-analysis of the deposited data

How the results depend on the processing

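For the 10 genes, 700 values under alternatives were computed: 0 passed 0.05, the smallest adjusted p was 0.114, 592 kept the sign and 108 had the other sign; with such wide intervals a sign alone carries little, and where a value changed the cause was not tested. Values below are log2 differences, named by gene. For SF_ConD against SC_ConD the other sign appeared for Kdr under the length covariate (0.22), limma-voom (0.0030), median-of-ratios (0.0038), TPM (0.14) and the library's own total (0.14). It appeared for Cdh5 under the length covariate (0.028), for Emcn under TPM (0.058) and own total (0.082), and for Cldn5 likewise (0.052 and 0.081). For SF_HPD against SF_ConD it appeared under the length covariate for Flt1 (-0.032) and Tek (-0.034), and under TPM for Kdr (0.061) and Tie1 (0.018). For SF_HPD against SC_ConD Pecam1 was -0.023 under the length covariate, -0.057 with limma-voom and -0.028 with a pseudocount of 0.1. There TPM gave Kdr 0.20, Flt1 0.13, Tek 0.11 and Vegfa 0.15, and own total gave Kdr 0.12, Flt1 0.050, Tek 0.025 and Vegfa 0.058. Those 2 scalings moved the median of all genes by 0.193 and 0.19 (SF_ConD against SC_ConD) and by 0.234 and 0.118 (SF_HPD against SC_ConD).

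With the replicate block, which treats libraries of the same number as pairs, Pecam1 was -0.30 for SF_HPD against SC_ConD. In any comparison 0 genes were called, and the medians of the 10 genes were -0.27, -0.12 and -0.31. The block changed no other call or sign.

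Without SC_ConD 2 and 3 the median of the 10 genes was -1.58 (SF_ConD against SC_ConD) and -1.61 (SF_HPD against SC_ConD), with SC_ConD 1, the library high for most of them, left as the lone control assumed to vary like the other groups. Pecam1 was then -0.99 and -1.54, Tie1 -1.76 and -1.82, and Emcn 0.022 in the first. Without the lymphoid-rich libraries SF_ConD against SC_ConD gave Cdh5 0.36, Kdr 0.52, Flt1 0.17 and Vegfa 0.080. SF_HPD against SF_ConD gave Flt1 -0.48, Tek -0.34 and Vegfa -0.32, and SF_HPD against SC_ConD gave Pecam1 -0.38.

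In the 9 libraries of lower length trend, 162 genes were called for SF_ConD against SC_ConD and 172 for SF_HPD against SC_ConD (255 and 168 without SF_HPD 2), none of them among the 10; there SC_ConD is 2 libraries with liver transcripts. SF_ConD 1, 4 and 5 and SF_HPD 5, also among the 9, are lymphoid-rich. With or without SF_HPD 2, SF_ConD against SC_ConD gave Cdh5 0.62, Kdr 0.51, Flt1 0.16, Tek 0.11 and Cldn5 0.14. SF_HPD against SF_ConD gave Flt1 -0.64 and Tek -0.52, and without SF_HPD 2 Flt1 -0.44, Emcn 0.14 and Egfl7 0.053. SF_HPD against SC_ConD gave Pecam1 -0.16, and without SF_HPD 2 Tek 0.21, Egfl7 0.34 and Vegfa 0.17.

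Leaving out 1 library at a time gave 0 to 194 called genes for SF_ConD against SC_ConD, 0 to 1 for SF_HPD against SF_ConD and 0 to 196 for SF_HPD against SC_ConD. The highest counts were those without SC_ConD 1 (194 and 196) and without SF_HPD 5 (1 in each SF_HPD comparison). For SF_ConD against SC_ConD the range was -1.13 to 1.07 for Cdh5, -0.63 to 0.97 for Kdr, -1.05 to 0.56 for Flt1, -0.99 to 0.39 for Tek and -0.19 to 1.52 for Tie1. For SF_HPD against SF_ConD it was -0.90 to 0.060 for Pecam1, -0.80 to 0.61 for Cdh5, -0.62 to 0.50 for Kdr, -0.31 to 0.67 for Flt1, -0.27 to 0.73 for Tek and -0.58 to 0.45 for Tie1. For SF_HPD against SC_ConD it was -0.50 to 0.78 for Pecam1, -1.30 to 0.90 for Cdh5, -0.70 to 0.90 for Kdr, -0.80 to 0.80 for Flt1, -0.82 to 0.57 for Tek, -0.25 to 1.45 for Tie1 and -0.57 to 0.47 for Vegfa. The part of depth in these values was not tested. Cldn5, the gene with the highest mean, rested on 204 to 5215 recovered reads in a library. In SF_HPD 2, which was not a shallow library (18061485 recovered reads), Cdh5 rested on 20 reads.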
